A study of Mus musculus with 84 samples.

Results

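The genes described here code for proteins that bring long-chain fatty acids into cells and carry them inside. They are the scavenger receptor gene Cd36, the fatty acid transport protein genes Slc27a1, Slc27a2 and Slc27a5, and the fatty acid binding protein genes Fabp1, Fabp2, Fabp3, Fabp4, Fabp5 and Fabp7. The members were taken by symbol, and all 10 were matched to a row of the count table, out of 49671 genes in all. RNA had been sequenced from 12 mice in 7 tissues, namely liver, epididymal fat, skeletal muscle, heart, aorta, hypothalamus and hippocampus. Mice were wild type (WT) or ob/ob, which lack working leptin through an inherited mutation of Lep, and mice of each genotype were fed either normal food (ND in the labels) or high-fat food (HFD). Each of the 28 combinations of tissue, genotype and diet had 3 libraries, 1 from each of 3 mice. A time of 20 weeks stands in the labels of every mouse, which could be its age or its time on the food, and 6 titles spell the high-fat diet HDF. The 4 groups in each tissue are therefore WT ND, WT HFD, ob/ob ND and ob/ob HFD. The leptin defect is in the whole body, and the labels' extraction text names hearts for the libraries of every tissue.

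CD36 is a membrane glycoprotein that binds long-chain fatty acids and favours their entry into muscle, fat and other cells, and macrophages use it as a receptor for oxidised lipoproteins. The Slc27 proteins are acyl-CoA synthetases as well as transporters: FATP1, the product of Slc27a1, serves insulin-responsive fat and muscle, FATP2, the product of Slc27a2, activates very long chains in liver and kidney, and FATP5, the product of Slc27a5, activates bile acids and fatty acids in hepatocytes. The Fabp products are small cytosolic carriers named for the tissue in which each was first found: liver (Fabp1), intestine (Fabp2), heart (Fabp3), adipocyte (Fabp4), epidermis (Fabp5) and brain (Fabp7). Adipocytes and macrophages both make FABP4 and FABP5, and FABP7 belongs to radial glia and astrocytes. Many of these genes are known targets of the PPAR receptors, nuclear receptors that bind fatty acids and pair with RXR on a direct repeat called DR1.

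Promoter sequence from the RefSeq table (GRCm38.p6) was searched for that repeat, because Cd36 and Fabp1 moved in opposite directions in the same livers. The motif was 2 copies of AGGTCA with 1 free base between them, on both strands, with up to 2 mismatches among its 12 fixed letters. Windows of the members covered 250 bases before the RefSeq start, without bases inside annotated exons. Windows could be read for Cd36, Fabp1, Fabp2, Fabp3, Fabp7 and Slc27a1, and only those of Cd36 and Fabp1 held a match. All 32851 windows in the table were searched over the full 250 bases, so their shares are not for windows cut like those of the members. Of these, 3.24% held a match, 0.484% held one with at most 1 mismatch and 0.0335% an exact one. The sequences run 5′ to 3′ on the strand of the gene, with the matching 13 bases, here the reverse complement of the motif, in capitals.
Cd36, chr5:17835897-17836146, minus strand, 2 mismatches: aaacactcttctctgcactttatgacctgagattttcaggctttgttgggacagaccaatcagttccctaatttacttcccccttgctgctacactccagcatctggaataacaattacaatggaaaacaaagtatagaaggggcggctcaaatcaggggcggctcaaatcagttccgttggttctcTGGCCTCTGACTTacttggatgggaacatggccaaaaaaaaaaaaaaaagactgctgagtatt
Fabp1, chr6:71199629-71199826, plus strand, 1 mismatch: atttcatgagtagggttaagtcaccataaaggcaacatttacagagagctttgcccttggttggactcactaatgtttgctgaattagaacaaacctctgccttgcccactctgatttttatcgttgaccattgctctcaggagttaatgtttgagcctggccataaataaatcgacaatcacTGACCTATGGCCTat
The match began 63 bases before the RefSeq start of Cd36 and 67 bases before that of Fabp1. A match is a description of these letters, and no binding was measured here.

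Library totals ran from 10499528 to 17040790 counts. CPM are counts scaled to the TMM library sizes of a tissue and serve for 1 gene between groups. RPKM are also divided by the deposited gene length, with TMM over all 84 libraries, and serve between genes and tissues. With a mean, ± gives the SD over 3 mice, and with a log2 fold change it gives its standard error. Verbs of change are kept for genes with an adjusted p under 0.05 by edgeR's quasi-likelihood test, adjusted over all genes of that tissue and comparison. Nothing in the labels ties the libraries of a group to separate litters or cages. The p-values therefore measure only the spread between mice within groups, pooled over the 4 groups of a tissue. Each tissue held the markers that define it, and none of those was at 0 in a whole tissue. Markers of other cells were present too. In aorta the smooth muscle markers summed to 231 to 1229 CPM, and the brown fat gene Ucp1 alone stood at 3589 to 11700 CPM. Adipoq, made by adipocytes, ran from 35.2 to 2124 CPM between skeletal muscle libraries. Alb, made by hepatocytes, reached 1394 CPM in 1 epididymal fat library. In bulk tissue, fewer cells of a type and less RNA per cell cannot be told apart.

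The levels of the members differed between tissues of WT ND mice, although some tissues overlapped. Fabp1 stood at 20620 ± 1005 RPKM in liver, and the next tissue, epididymal fat, reached 0.657 to 126 RPKM. Fabp2 (256 ± 24.9 RPKM), Slc27a2 (709 ± 26.99 RPKM) and Slc27a5 (705 ± 44.8 RPKM) were likewise highest in liver. For each of these 4 genes every WT ND liver library exceeded every WT ND library of another tissue. Fabp1 had no count in any library of hippocampus or hypothalamus.

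Fabp3 was highest in heart, at 7516 ± 453 RPKM. Skeletal muscle followed at 1856 ± 1587 RPKM and aorta at 1200 ± 177 RPKM, and the libraries of these 2 tissues overlapped. Hippocampus (58.7 ± 1.89 RPKM) and hypothalamus (51.97 ± 10.6 RPKM) overlapped as well. At the other end, epididymal fat held 0.307 ± 0.249 RPKM of Fabp3 and liver 0.0565 ± 0.0978 RPKM, and the libraries of these overlapped. Fabp4 was highest in aorta (4251 ± 809 RPKM), then in epididymal fat (2697 ± 328 RPKM), heart (380 ± 43.01 RPKM), skeletal muscle (204 ± 122 RPKM) and liver (1.70 ± 0.707 RPKM), with no overlap between neighbours in that order. The gap between aorta and epididymal fat depends on the scaling over all libraries. Scaled within each tissue, Fabp4 stood at 16790 ± 2987 CPM in aorta and 16770 ± 1843 CPM in epididymal fat, and these libraries overlapped. Brain libraries held 0 to 0.026 RPKM of Fabp4.

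Cd36 was highest in epididymal fat (1050 ± 221 RPKM) and heart (893 ± 34.9 RPKM), which overlapped. Aorta (583 ± 71.1 RPKM), skeletal muscle (256 ± 188 RPKM), liver (81.8 ± 14.3 RPKM) and the brain regions (0.960 ± 0.329 RPKM in hypothalamus and 0.178 ± 0.0904 RPKM in hippocampus) came after it, and of these only skeletal muscle and liver overlapped. Slc27a1 had a narrower range, from 66.8 ± 9.36 RPKM in epididymal fat to 2.70 ± 0.390 RPKM in liver. Fabp5 was the most even member, with 45.2 ± 10.3 RPKM in aorta and 5.57 ± 2.75 RPKM in skeletal muscle as its extremes. Fabp7 was highest in hypothalamus (30.3 ± 8.03 RPKM) and hippocampus (17.9 ± 3.86 RPKM), which overlapped, and reached at most 4.42 RPKM in any WT ND library of the other 5 tissues.

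**Figure D1:**
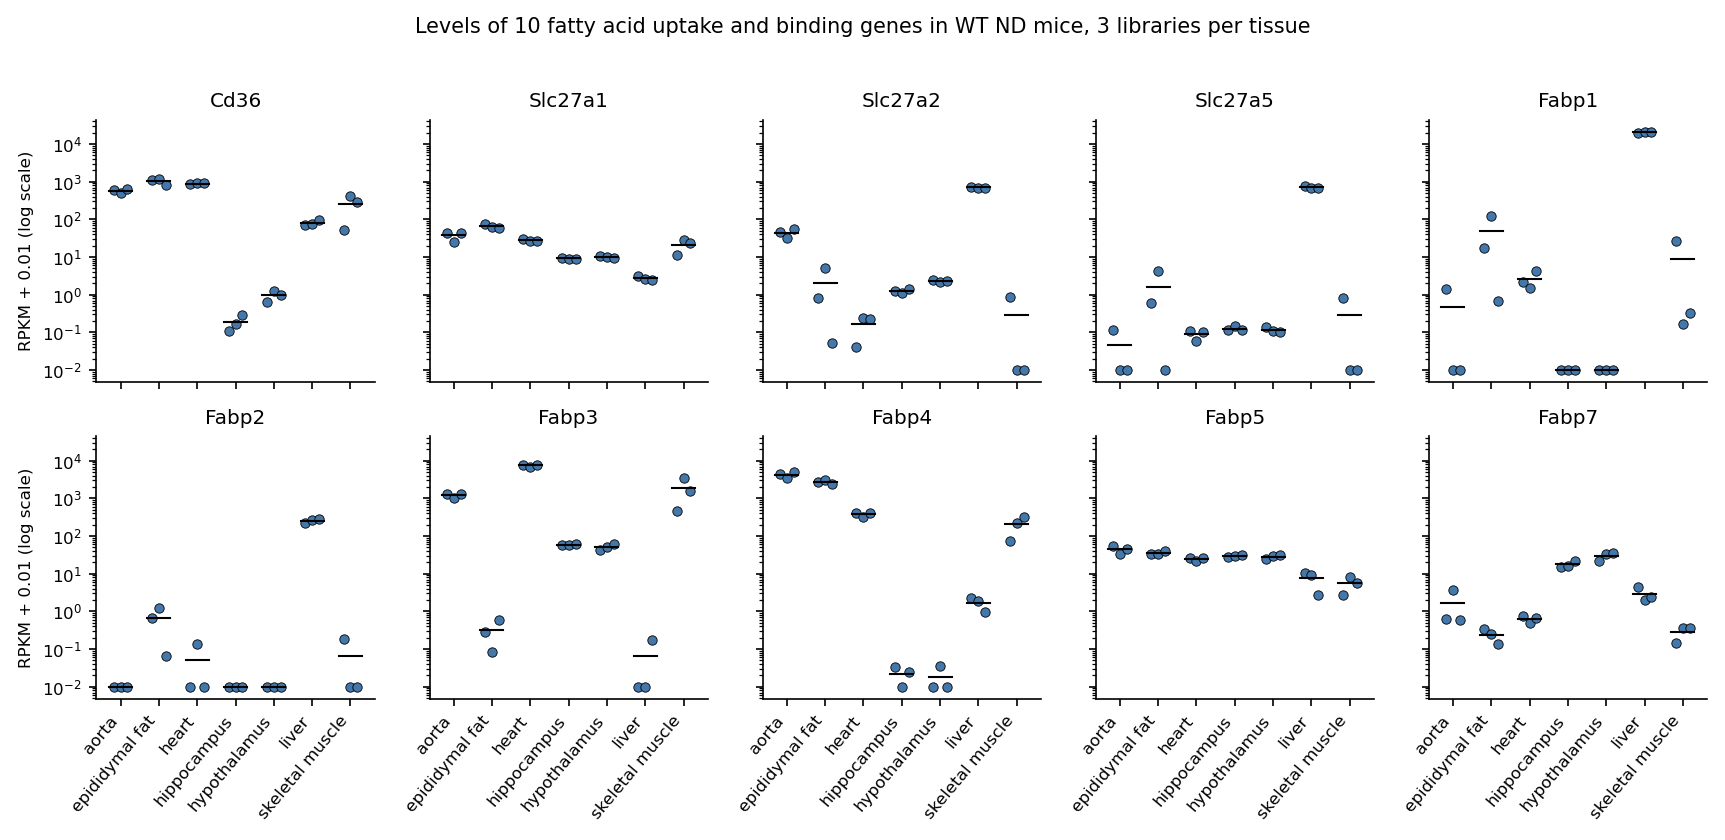
RPKM plus 0.01 (vertical axis, log scale) of each member in the 3 WT ND libraries of each tissue (points) with their mean (line). Fabp1, Fabp2, Slc27a2 and Slc27a5 are highest in liver, Fabp3 in heart, Fabp4 in aorta and epididymal fat and Fabp7 in the brain regions, while Fabp5 lies within a narrow range.

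Within the summed RPKM of the 6 Fabp genes, 1 carrier dominated most tissues. Fabp1 made up 98.7 ± 0.0362% of the sum in WT ND liver, Fabp3 made up 94.9 ± 0.274% in heart, and Fabp4 made up 97.1 ± 1.89% in epididymal fat and 77.2 ± 1.23% in aorta. These shares depend on gene length. The deposited length of Fabp4 is 4489 bases, the span of the whole gene, against 896 bases for its longest coding transcript in GENCODE M21, and that of Fabp5 is 3567 against 987 bases. With transcript lengths, chosen after the data were seen, Fabp4 made up 93.9 ± 0.431% of the sum in aorta and 20.0 ± 0.919% in heart. In hippocampus Fabp3 led with the deposited lengths (55.6 ± 2.07%, against 27.6 ± 0.729% for Fabp5), and Fabp5 led with transcript lengths (55.7 ± 1.14%, against 30.99 ± 1.19% for Fabp3). A comparison of 1 gene between samples is not touched by its length.

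Of the members, 50 pairs of member and tissue passed the filter on low counts and were tested in each comparison. For ob/ob against WT mice on ND, 20 of 50 differed (11 higher, 9 lower), against 25.7% of all genes tested over the 7 tissues. On HFD 8 of 50 differed between the genotypes (2 higher, 6 lower), against 9.98% of all genes. HFD against ND changed 16 of 50 in WT mice (8 higher, 8 lower), against 12.1%, and 0 of 50 in ob/ob mice, against 0.117%. For that count of 0 by edgeR, 5 pairs had an unadjusted p under 0.05, and DESeq2 also called 0. The diet effect differed between the genotypes in 7 of 50 (2 positive, 5 negative), against 6.78%. Genotype on ND and diet in WT mice share the WT ND libraries, so a like change in both is not independent evidence, and their values stand side by side below.

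**Figure D2:**
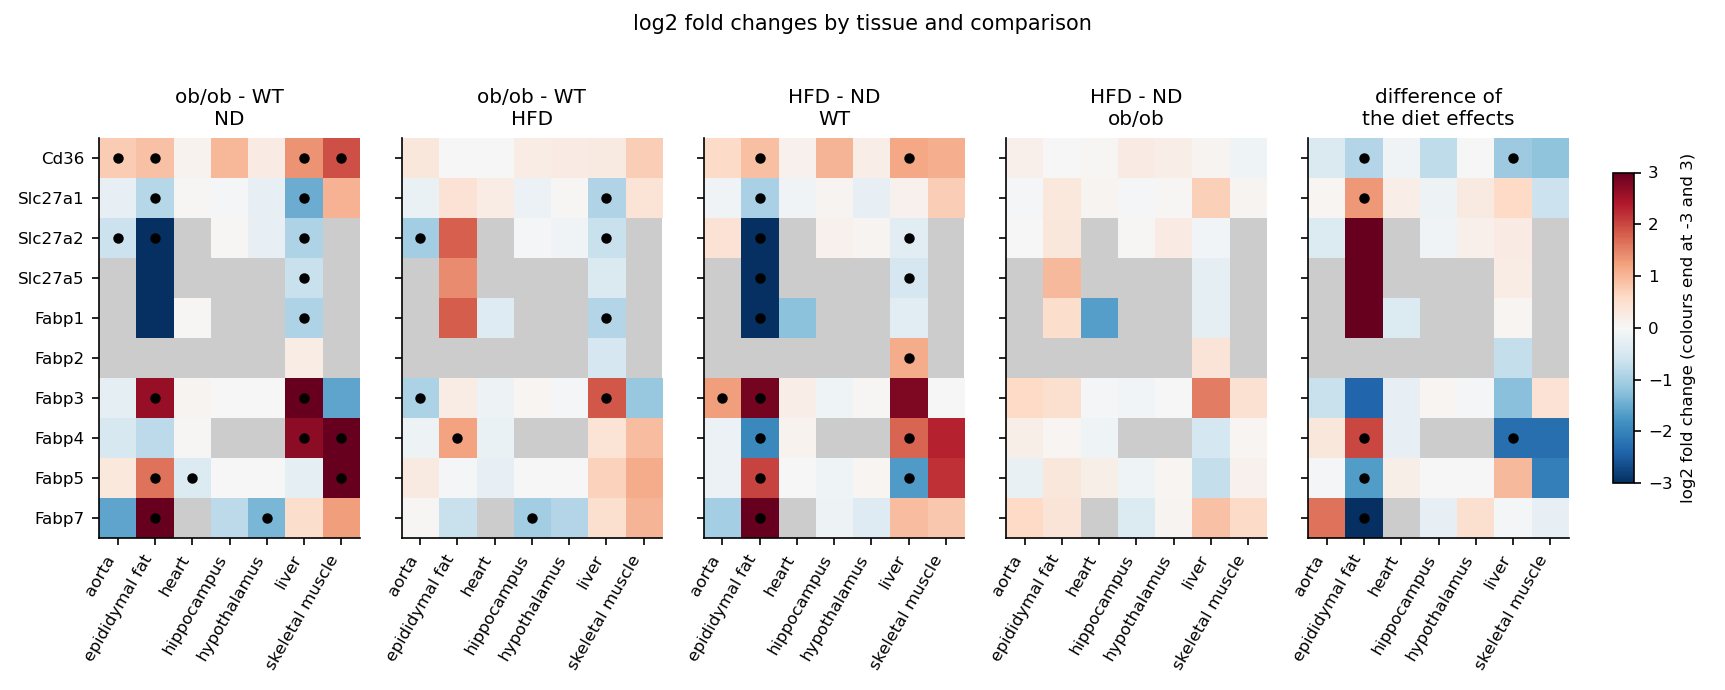
log2 fold change (colour, ending at -3 and 3) of each member (rows) in each tissue (columns) for the 5 comparisons, with a dot where edgeR's adjusted p was under 0.05 and grey where the gene did not pass the filter on low counts. Dots crowd in epididymal fat and liver, and the panel for diet in ob/ob mice has none.

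In epididymal fat Cd36, Fabp5 and Fabp7 were lowest and Slc27a1 and Fabp4 highest in WT ND mice. Of 10 members, 9 passed the filter, all but Fabp2. On ND, 6 of 9 differed between ob/ob and WT mice (4 higher, 2 lower; median log2 fold change -0.79), against 48.2% of all genes (median -0.01). HFD changed 9 of 9 in WT mice (4 higher, 5 lower; median -0.98), against 58.9% of all genes (median -0.04). On HFD 1 of 9 differed between the genotypes, against 17.6%. In ob/ob mice HFD changed 0 of 9 by edgeR, against 0.0% of all genes, with 0 at an unadjusted p under 0.05 and 0 by DESeq2. The diet effect differed between the genotypes in 5 of 9, against 40.1%.

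Cd36 rose while the transporter Slc27a1 fell. Cd36 stood at 5582, 6017 and 4046 CPM in WT ND, at 10930, 10630 and 7854 CPM in WT HFD, at 11310, 8237 and 9232 CPM in ob/ob ND and at 9735, 10570 and 8895 CPM in ob/ob HFD. WT ND libraries lay below all others and the 3 other groups overlapped. Cd36 was 1.84-fold higher in ob/ob mice on ND (0.88 ± 0.211, adjusted p = 0.00537) and 1.88-fold higher with HFD in WT mice (0.91 ± 0.211, adjusted p = 0.00331). The diet effects differed by -0.89 ± 0.296 (adjusted p = 0.0336). That difference was lost when any 1 of 7 libraries was left out (WT ND 1 or 3, WT HFD 1 or 2, ob/ob ND 1, ob/ob HFD 1 or 3), with values of -1.11 to -0.76 and adjusted p up to 0.0746.

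Slc27a1 was at 619, 509 and 491 CPM in WT ND, at 216, 225 and 381 CPM in WT HFD, at 274, 289 and 331 CPM in ob/ob ND and at 412, 374 and 332 CPM in ob/ob HFD. WT ND libraries stood above all others. Slc27a1 was 1.81-fold lower in ob/ob mice on ND (-0.86 ± 0.204, adjusted p = 0.00519) and 1.97-fold lower with HFD in WT mice (-0.98 ± 0.204, adjusted p = 0.00178). The diet effects differed by 1.30 ± 0.287 (adjusted p = 0.00467).

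The adipocyte carrier Fabp4 stood at 16760, 18620 and 14940 CPM in the WT ND libraries, at 2463, 3962 and 6668 CPM in WT HFD, at 8073, 9692 and 11310 CPM in ob/ob ND and at 11520, 9962 and 8698 CPM in ob/ob HFD. All WT HFD libraries lay below all others, and all WT ND libraries above all others. HFD lowered Fabp4 in WT mice by 3.84-fold (log2 fold change -1.94 ± 0.317, adjusted p = 0.000357). The genotype difference on ND was -0.79 ± 0.308 (adjusted p = 0.053) and did not pass, although DESeq2 gave an adjusted p of 0.0192. On HFD Fabp4 was higher in ob/ob mice (1.20 ± 0.311, adjusted p = 0.0256), a call that did not hold without WT HFD library 1 or 2 or without any 1 of the 3 ob/ob HFD libraries (log2 fold change 0.91 to 1.59, adjusted p up to 0.103). The diet effect in ob/ob minus that in WT mice was 1.996 ± 0.437 (adjusted p = 0.00441).

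Fabp5 went the other way. Its levels were 162, 165 and 201 CPM in WT ND, 925, 726 and 499 CPM in WT HFD, 633, 461 and 539 CPM in ob/ob ND and 571, 843 and 648 CPM in ob/ob HFD. Every library of the 3 other groups exceeded every WT ND library. Fabp5 was 3.09-fold higher in ob/ob than in WT mice on ND (1.63 ± 0.229, adjusted p = 0.000198) and 4.07-fold higher on HFD than on ND in WT mice (2.02 ± 0.231, adjusted p = 3.33e-05). The diet effects of the 2 genotypes differed by -1.69 ± 0.317 (adjusted p = 0.00192). Reads of Fabp5 that also match a processed copy elsewhere in the genome were not counted, so its level is uncertain. For each 100 counts of Fabp4, WT ND fat held 0.967, 0.887 and 1.35 counts of Fabp5. Fat of WT HFD mice held 37.5, 18.3 and 7.48, that of ob/ob ND mice 7.84, 4.76 and 4.76, and that of ob/ob HFD mice 4.96, 8.46 and 7.45. The WT HFD mouse with the lowest Fabp4 had the highest proportion.

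Fabp7, the brain carrier, was low in WT ND fat, at 0.559, 0.407 and 0.220 CPM. It reached 19.5, 19.5 and 8.42 CPM in WT HFD, 12.99, 5.11 and 4.58 CPM in ob/ob ND and 6.92, 13.4 and 9.37 CPM in ob/ob HFD. No library of another group overlapped the WT ND ones, which rest on 15 counts in all. The rise was 18.9-fold in ob/ob mice on ND (4.24 ± 0.611, adjusted p = 0.000235) and 39.5-fold with HFD in WT mice (5.30 ± 0.604, adjusted p = 3.24e-05), and the diet effects differed by -4.92 ± 0.757 (adjusted p = 0.000622). With 1 library left out, the log2 differences ran from 3.61 without ob/ob ND library 1 to 4.58 without WT ND library 1 for genotype, and from 5.03 without WT ND library 3 to 5.69 without WT HFD library 3 for diet. Schwann cells also make Fabp7, and 1 of 2 tested Schwann cell markers rose in both comparisons with WT ND (summed markers 164 to 182 CPM in WT ND, 309 to 366 in WT HFD and 288 to 304 in ob/ob ND). Their part was not tested. Fabp3 changed in the same direction at a far lower level. It rose from 0.319, 0.0814 and 0.659 CPM in WT ND to 1.30, 5.66 and 1.08 CPM in WT HFD (2.87 ± 0.711, adjusted p = 0.00496), and stood at 2.08, 2.76 and 1.88 CPM in ob/ob ND (2.61 ± 0.715, adjusted p = 0.0111). The WT ND values rest on 14 counts in all. With 1 library left out the diet difference ran from 1.73 without WT HFD library 2 to 3.70 without WT ND library 3, and the genotype difference from 2.17 without WT ND library 2 to 3.43 without WT ND library 3 (adjusted p up to 0.0201 and 0.0388).

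The liver genes Fabp1, Slc27a2 and Slc27a5 also passed in fat, where hepatocyte markers varied between libraries. In WT ND fat Fabp1 stood at 13.4, 95.7 and 0.513 CPM, Slc27a2 at 4.15, 26.9 and 0.220 CPM and Slc27a5 at 1.996, 14.2 and 0.0 CPM. WT HFD fat held 0.460, 3.08 and 0.647 CPM of Fabp1. Alb was 211, 1394 and 29 CPM in the same 3 libraries and 7.74, 28.5 and 6.11 CPM in WT HFD. All 6 hepatocyte markers fell with HFD in WT fat, and their summed level ran from 33.6 to 1764 CPM in WT ND and from 9.42 to 36.4 CPM in WT HFD. With HFD in WT mice Fabp1 changed by -4.69 ± 1.59 (adjusted p = 0.0251), Slc27a2 by -5.00 ± 1.53 (adjusted p = 0.0152) and Slc27a5 by -3.67 ± 1.47 (adjusted p = 0.0499). The call of Fabp1 was lost without WT ND library 2 or WT HFD library 1 or 3 (-5.99 to -2.27, adjusted p up to 0.217), and that of Slc27a2 without WT ND library 2 or WT HFD library 1 (-6.41 to -2.73, adjusted p up to 0.120). That of Slc27a5 was lost without any 1 of 10 libraries, all but WT ND 3 and ob/ob HFD 3 (-4.23 to -1.21, adjusted p up to 0.487), with a replicate block (-2.82, adjusted p = 0.078) and with DESeq2 size factors (-3.66, adjusted p = 0.0501). Without WT ND libraries 1 and 2, left out after the data were seen, only 1 WT ND library remained. The 3 values then became 1.45, 0.51 and 5.51. The genotype call of Slc27a2 on ND (-3.56 ± 1.36, adjusted p = 0.0489) turned to 1.957 in that fit. It was lost without any 1 of 9 libraries, all but WT ND 3, WT HFD 1 and ob/ob HFD 3 (-4.15 to -1.30, adjusted p up to 0.434), and by DESeq2 (adjusted p = 0.0607).

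Markers of other cells moved with these results. On ND 7 of 8 adipocyte markers were lower and 8 of 8 macrophage markers higher in ob/ob fat. In WT fat, HFD lowered 7 of 8 adipocyte markers and all 7 endothelial markers, and raised all 8 macrophage markers. Summed adipocyte markers ran from 23680 to 31620 CPM in WT ND, 1710 to 6443 CPM in WT HFD, 6956 to 11020 CPM in ob/ob ND and 7400 to 9827 CPM in ob/ob HFD. Summed macrophage markers ran from 1908 to 2014, 9884 to 18300, 6703 to 11320 and 8532 to 12310 CPM in that order. The WT HFD mouse with the least Fabp4 also had the lowest adipocyte sum. Their part in the changes of Fabp4, Fabp5, Fabp7, Cd36 and Slc27a1 was not tested. Without WT ND libraries 1 and 2 a single WT ND library is left, so only effect sizes are given and no call is judged. The diet differences in WT mice were then -1.76 for Fabp4, 1.85 for Fabp5, 6.125 for Fabp7, 1.29 for Cd36 and -0.83 for Slc27a1. The differences between diet effects were 1.825, -1.50, -5.73, -1.26 and 1.16 in that order. For Fabp3 the diet difference was 2.025 and the genotype difference on ND 1.77. For Slc27a1 the genotype difference on ND was -0.70.

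**Figure D3:**
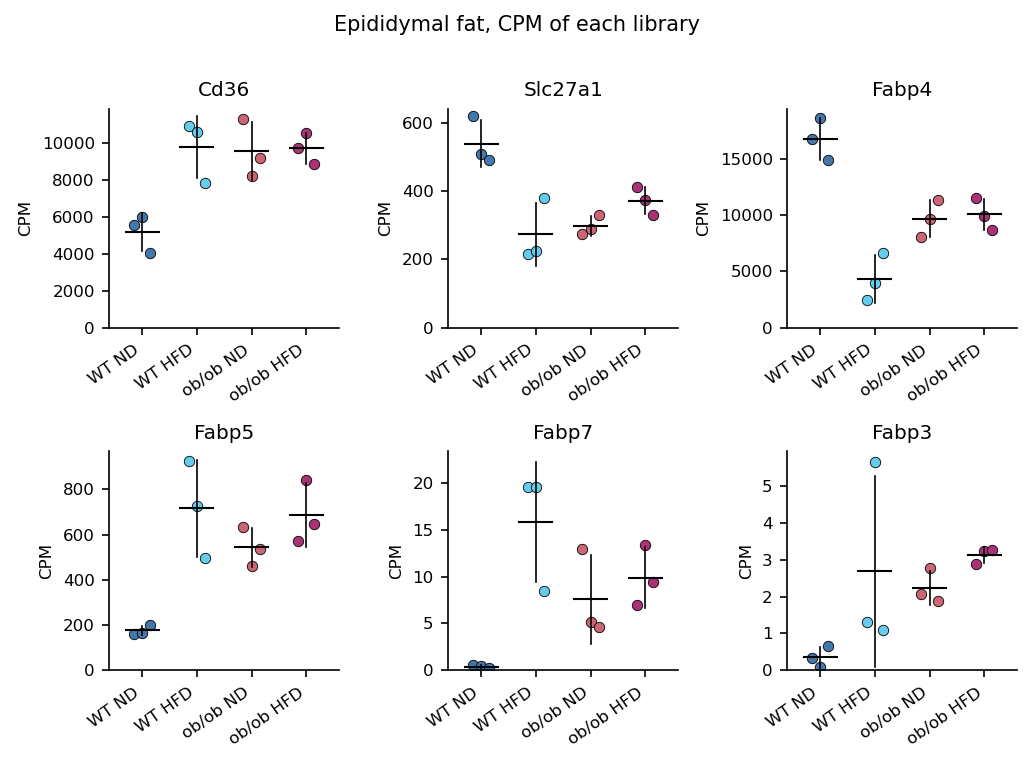
CPM in epididymal fat (vertical axis, from 0) of 6 members in each of the 3 libraries of the 4 groups (points), with the group mean (horizontal line) and SD (vertical line). WT ND libraries stand alone in each panel, above the rest for Fabp4 and Slc27a1 and below it for Cd36, Fabp5, Fabp7 and Fabp3.

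In liver all 10 members were tested. On ND 7 of 10 differed between ob/ob and WT mice (3 higher, 4 lower; median -0.03), against 36.4% of all genes (median 0.02). On HFD 4 of 10 differed (1 higher, 3 lower), against 18.5%. HFD changed 6 of 10 in WT mice (3 higher, 3 lower; median 0.52), against 21.8% (median 0.02). In ob/ob liver HFD changed 0 of 10 by edgeR, against 0.913% of all genes, with 3 at an unadjusted p under 0.05 and 0 by DESeq2. The diet effect differed between the genotypes in 2 of 10, against 6.17%.

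Cd36 was lowest in WT ND liver. It stood at 177, 179 and 241 CPM in WT ND, at 525, 434 and 383 CPM in WT HFD, at 487, 509 and 522 CPM in ob/ob ND and at 513, 477 and 619 CPM in ob/ob HFD. No library of another group overlapped the WT ND ones. Cd36 was 2.54-fold higher in ob/ob mice on ND (1.35 ± 0.147, adjusted p = 1.85e-05) and 2.25-fold higher with HFD in WT mice (1.17 ± 0.147, adjusted p = 0.000203). In ob/ob mice the diet difference was 0.08 ± 0.144 (adjusted p = 0.85), and the diet effects of the genotypes differed by -1.09 ± 0.205 (adjusted p = 0.00841).

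Slc27a2 stood at 1864, 1740 and 1794 CPM in WT ND, at 1497, 1346 and 1433 CPM in WT HFD, at 923, 1039 and 893 CPM in ob/ob ND and at 963, 862 and 876 CPM in ob/ob HFD. WT ND, WT HFD and the 2 ob/ob groups formed 3 steps without overlap. Slc27a2 was lower in ob/ob mice on ND (-0.92 ± 0.0937, adjusted p = 1.14e-05) and on HFD (-0.66 ± 0.0933, adjusted p = 0.000535), and HFD lowered it in WT mice (-0.34 ± 0.0930, adjusted p = 0.0213). The last call was lost without WT ND library 1 or 3 or WT HFD library 2 (-0.38 to -0.30, adjusted p up to 0.0782) and with no filter on low counts (adjusted p = 0.0651). Hepatocyte markers moved the same way: 4 of 6 were lower and 0 higher in ob/ob liver on ND, 1 was lower on HFD, and HFD lowered 4 in WT liver. Their summed level ran from 108000 to 115200 CPM in WT ND, 77840 to 88170 CPM in WT HFD, 89190 to 97450 CPM in ob/ob ND and 64300 to 88610 CPM in ob/ob HFD. The part of this in the falls of Slc27a2, Slc27a5 and Fabp1 was not tested.

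Slc27a5 was at 1236, 1096 and 1156 CPM in WT ND, at 852, 814 and 790 CPM in WT HFD, at 683, 809 and 720 CPM in ob/ob ND and at 781, 504 and 542 CPM in ob/ob HFD. WT ND libraries exceeded all others. Slc27a5 was lower in ob/ob mice on ND (-0.66 ± 0.142, adjusted p = 0.00296), and HFD lowered it in WT mice (-0.51 ± 0.142, adjusted p = 0.0226). The diet call was lost without WT ND library 1 or 3 or WT HFD library 2 or 3 (-0.55 to -0.46, adjusted p up to 0.0791). The genotype difference on HFD, -0.43 ± 0.142, had an adjusted p of 0.053 in edgeR and 0.0237 in DESeq2. The same 4 of 6 lower hepatocyte markers stand beside both calls.

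The liver carrier Fabp1 was at 7264, 7766 and 8112 CPM in WT ND, at 6470, 5421 and 6303 CPM in WT HFD, at 4168, 4146 and 3910 CPM in ob/ob ND and at 3038, 2506 and 4416 CPM in ob/ob HFD. All ob/ob libraries lay below all WT libraries. The gene was 1.89-fold lower in ob/ob mice on ND (-0.92 ± 0.166, adjusted p = 0.000858) and 1.83-fold lower on HFD (-0.87 ± 0.166, adjusted p = 0.00317). The difference of these 2 effects was 0.05 ± 0.233 (adjusted p = 0.93). The diet effect in WT mice, -0.35 ± 0.165, did not pass (adjusted p = 0.15), although the WT HFD libraries lay below the WT ND ones. Beside the genotype calls, 4 of 6 hepatocyte markers were lower on ND and 1 of 6 on HFD.

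Fabp2, a gut carrier with a lower level in liver, had 149, 171 and 183 CPM in WT ND, 365, 241 and 473 CPM in WT HFD, 233, 160 and 194 CPM in ob/ob ND and 222, 228 and 315 CPM in ob/ob HFD. WT HFD libraries exceeded the WT ND ones. HFD raised Fabp2 by 2.15-fold in WT mice (1.10 ± 0.217, adjusted p = 0.00353), and the change in ob/ob mice was 0.38 ± 0.214 (adjusted p = 0.45). The difference of these diet effects, -0.72 ± 0.303, did not pass (adjusted p = 0.19).

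Fabp4, at low counts in liver, had 6.997, 5.64 and 2.85 CPM in WT ND, 17.5, 14.4 and 20.3 CPM in WT HFD, 48.9, 27.4 and 23.97 CPM in ob/ob ND and 16.2, 27.2 and 25.7 CPM in ob/ob HFD. WT ND libraries were the lowest. The rise was 6.41-fold in ob/ob mice on ND (2.68 ± 0.330, adjusted p = 4.64e-05) and 3.33-fold with HFD in WT mice (1.74 ± 0.339, adjusted p = 0.00343), and the diet effects differed by -2.27 ± 0.441 (adjusted p = 0.00991). The adipocyte gene Adipoq was at 11.8, 2.60 and 0.0713 CPM in the ob/ob ND livers and at most 1.04 CPM in the other 9. Of 6 tested adipocyte markers, 2 were higher in ob/ob liver on ND, Adipoq and Cidec, and 1 lower, Pck1. HFD raised 3 and lowered 1 in WT liver. The summed list ran from 3536 to 4455 CPM in WT ND, 1446 to 2383 CPM in ob/ob ND and 1806 to 2512 CPM in WT HFD. Most of that sum is Pck1, which hepatocytes also make for gluconeogenesis. With any 1 of the 12 libraries left out, the genotype difference of Fabp4 on ND stayed between 2.303 and 2.96 (adjusted p up to 0.000359). Macrophages make FABP4 too, and 4 of 8 macrophage markers rose in both comparisons. Their sum ran from 91.96 to 336 CPM in WT ND, 259 to 290 CPM in ob/ob ND and 336 to 377 CPM in WT HFD. The part of either cell type was not tested.

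Slc27a1 had few counts in liver, at 12.4, 10.1 and 9.60 CPM in WT ND, 12.5, 11.4 and 10.9 CPM in WT HFD, 4.11, 4.07 and 3.14 CPM in ob/ob ND and 3.88, 10.2 and 4.496 CPM in ob/ob HFD. It was 2.83-fold lower in ob/ob mice on ND (-1.50 ± 0.291, adjusted p = 0.00142). On HFD it was lower as well (-0.90 ± 0.273, adjusted p = 0.0355), but not without any 1 of the 3 WT HFD libraries or ob/ob HFD library 1 or 3 (-1.47 to -0.66, adjusted p up to 0.115). The second ob/ob HFD liver stood apart in several members, with the highest Slc27a1 and Fabp5 and the lowest Fabp1 of its group, the highest macrophage sum (614 CPM) and the lowest hepatocyte sum (64300 CPM) of all livers. Fabp5 was at 24.8, 22.7 and 6.65 CPM in WT ND, 4.69, 6.50 and 5.51 CPM in WT HFD, 18.4, 11.4 and 14.8 CPM in ob/ob ND and 4.48, 15.6 and 6.74 CPM in ob/ob HFD. HFD lowered it in WT mice (-1.70 ± 0.473, adjusted p = 0.0216) with 1 WT ND liver, at 6.65 CPM, next to the highest WT HFD liver. That call was lost without WT ND library 1 or 2 or WT HFD library 1 (-2.09 to -1.41, adjusted p up to 0.0881).

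Fabp7 in liver was 1.65 to 8.76 CPM and passed in no comparison. Fabp3 passed for genotype on both diets from a count of 1 over the 3 WT ND livers, 10 in WT HFD, 14 in ob/ob ND and 41 in ob/ob HFD, so only its levels are given: at most 0.095, 0.523, 0.492 and 1.18 CPM. The adjusted p by DESeq2 was 0.0562 on ND, and DESeq2 gave none on HFD.

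**Figure D4:**
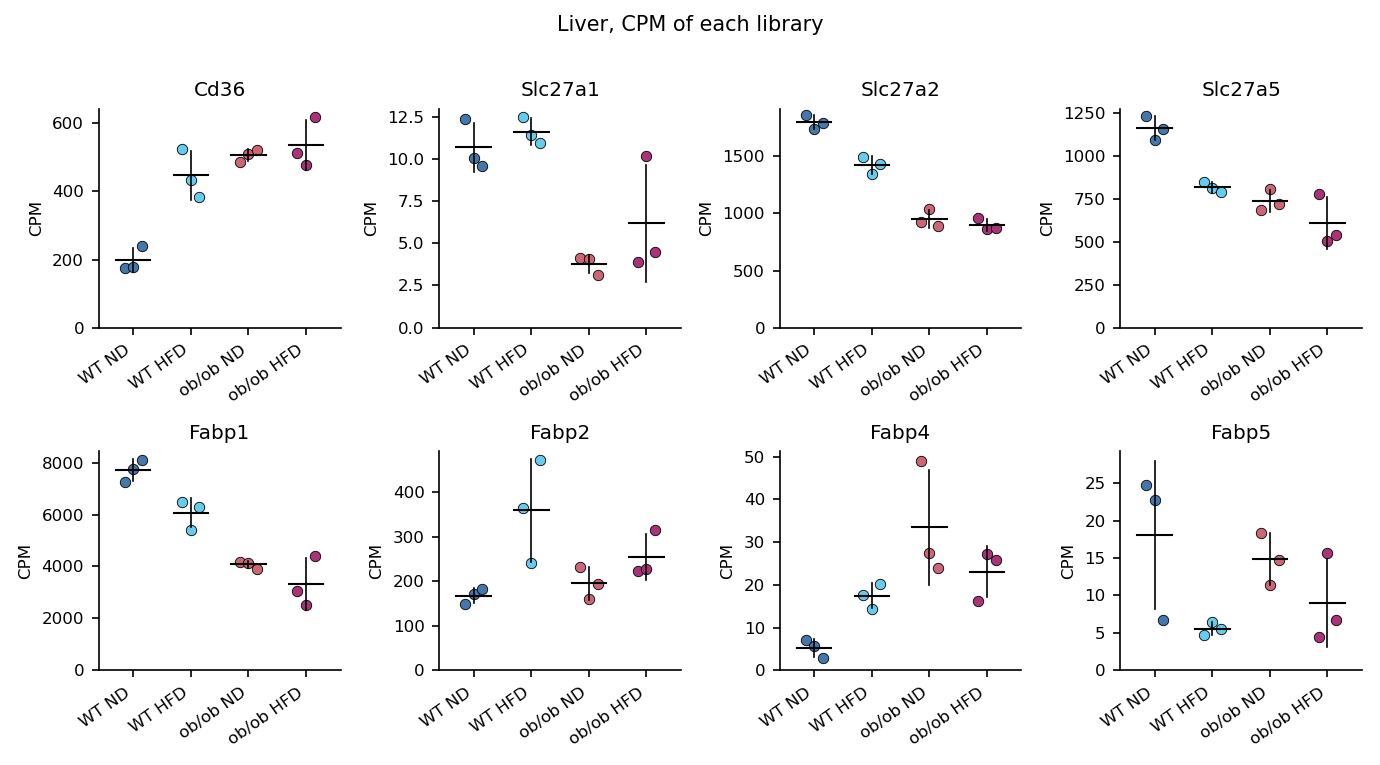
CPM in liver (vertical axis, from 0) of 8 members in each of the 3 libraries of the 4 groups (points), with the group mean (horizontal line) and SD (vertical line). Fabp1, Slc27a2 and Slc27a5 step down from WT ND to the ob/ob groups, and Cd36 and Fabp4 lie above the WT ND libraries in all 3 other groups.

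In aorta, where 7 members were tested, ob/ob and WT mice differed in 2 of 7 on ND (1 higher, 1 lower; median -0.27), against 31.7% of all genes (median -0.03), and in 2 of 7 on HFD (0 higher, 2 lower), against 16.2%. HFD changed 1 of 7 in WT mice, against 4.21%. In ob/ob mice it changed 0 of 7 by edgeR, against 0.0%, with 1 at an unadjusted p under 0.05 and 0 by DESeq2. The diet effects differed in 0 of 7, against 0.427%, also with 1 at an unadjusted p under 0.05 and 0 by DESeq2.

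The heart carrier Fabp3 was at 903, 747 and 958 CPM in WT ND aorta, at 2271, 1840 and 2110 CPM in WT HFD, at 853, 683 and 624 CPM in ob/ob ND and at 1015, 1017 and 1213 CPM in ob/ob HFD. WT HFD libraries stood above all others. HFD raised Fabp3 by 2.39-fold in WT mice (1.25 ± 0.166, adjusted p = 0.00171), and on HFD the gene was 1.92-fold lower in ob/ob than in WT mice (-0.94 ± 0.165, adjusted p = 0.00344). In ob/ob mice the diet difference was 0.59 ± 0.164 (adjusted p = 0.91), without overlap of the libraries. The difference of the diet effects, -0.67 ± 0.232, did not pass (adjusted p = 0.24). Brown fat also makes Fabp3. The summed brown adipocyte markers were 12380 to 16260 CPM in WT ND and 12280 to 14800 CPM in WT HFD, with none of the 5 past the test for diet in WT mice. HFD lowered 3 of 5 smooth muscle markers in WT aorta (sum 456 to 1229 CPM on ND and 231 to 425 CPM on HFD), and of 8 adipocyte markers it raised 1 and lowered 2 (7730 to 12080 CPM and 7531 to 8670 CPM). In ob/ob mice the summed brown adipocyte markers were 6203 to 9622 CPM on ND and 7806 to 9807 CPM on HFD. Of these 5 brown adipocyte markers, 3 were lower and 1 higher than in WT mice on ND, and 2 lower and 1 higher on HFD. The part of these cells in the diet and genotype differences was not tested.

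Slc27a2 in aorta stood at 149, 107 and 183 CPM in WT ND, 217, 167 and 203 CPM in WT HFD, 114, 93.9 and 73.6 CPM in ob/ob ND and 98.0, 104 and 82.8 CPM in ob/ob HFD. It was lower in ob/ob mice on HFD (-1.05 ± 0.203, adjusted p = 0.00559), with no overlap, and on ND (-0.64 ± 0.202, adjusted p = 0.0294), with overlap. The ND call was lost without WT ND library 1 or 3 or ob/ob ND library 2 or 3 (-0.83 to -0.44, adjusted p up to 0.139). Beside these calls, 3 of 5 brown adipocyte markers were lower and 1 higher in ob/ob aorta on ND, and 2 lower and 1 higher on HFD. The part of brown adipocytes in the Slc27a2 differences was not tested. Cd36 was at 1884, 1638 and 2004 CPM in WT ND, 2842, 2844 and 2589 CPM in WT HFD, 2718, 3505 and 3169 CPM in ob/ob ND and 3307, 3906 and 3264 CPM in ob/ob HFD. WT ND libraries were the lowest. Cd36 was 1.7-fold higher in ob/ob mice on ND (0.77 ± 0.159, adjusted p = 0.00394), and the diet difference in WT mice was 0.58 ± 0.158 (adjusted p = 0.058 by edgeR, 0.000575 by DESeq2). On ND 4 of 8 macrophage markers were higher in ob/ob aorta (sum 423 to 1816 CPM in WT and 787 to 1319 CPM in ob/ob) and all 5 erythroid markers lower (8907 to 13800 CPM and 3331 to 6351 CPM). Their part in the Cd36 difference was not tested. Fabp4, the most abundant member there, ran from 11010 to 19890 CPM, and its genotype difference on ND was -0.49 ± 0.199 (adjusted p = 0.080 by edgeR, 0.00761 by DESeq2). Fabp5 ran from 108 to 182 CPM and Slc27a1 from 124 to 228 CPM, and neither passed in any comparison.

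In skeletal muscle Cd36, Fabp4 and Fabp5 were higher in ob/ob than in WT mice on ND, with a wide spread between mice. Of 6 tested members, 3 were higher and 0 lower in ob/ob than in WT mice on ND (median 1.60), against 45% of all genes (median 0.00). On HFD 0 of 6 differed, against 0.0194% of all genes, and HFD changed 0 of 6 in WT mice, 0 of 6 in ob/ob mice and 0 of 6 for the difference of the diet effects, each against 0.0%. By edgeR 0, 2, 0 and 2 of these had an unadjusted p under 0.05, and DESeq2 called 0, 2, 0 and 0. Fabp4 stood at 331, 998 and 1409 CPM in WT ND, 4845, 5241 and 3504 CPM in WT HFD, 8548, 7206 and 9102 CPM in ob/ob ND and 2286, 13410 and 10040 CPM in ob/ob HFD. Both genotype groups on ND were apart, while the ob/ob HFD libraries spanned the WT HFD range. Fabp4 was 9.08-fold higher in ob/ob mice on ND (3.18 ± 0.714, adjusted p = 0.00698).

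Fabp5 in muscle was at 9.76, 29.6 and 20.1 CPM in WT ND, 94.9, 114 and 60.9 CPM in WT HFD, 185, 160 and 187 CPM in ob/ob ND and 44.8, 296 and 239 CPM in ob/ob HFD (genotype on ND 3.16 ± 0.617, adjusted p = 0.00427). Cd36 was at 188, 1531 and 1037 CPM in WT ND, 1932, 2127 and 1767 CPM in WT HFD, 3784, 3422 and 3386 CPM in ob/ob ND and 1239, 4656 and 3822 CPM in ob/ob HFD (genotype on ND 1.94 ± 0.674, adjusted p = 0.0371). The Cd36 call was lost without any 1 of 8 libraries: WT ND 1 or 3, any WT HFD or any ob/ob ND library (1.46 to 2.52, adjusted p up to 0.0864). Within each group the libraries had the same order by Fabp4 as by their adipocyte markers. Summed, these were 226, 489 and 1648 CPM in WT ND, 4885, 5418 and 2708 CPM in WT HFD, 7944, 6003 and 9063 CPM in ob/ob ND and 1765, 11710 and 6890 CPM in ob/ob HFD, and 6 of 8 rose with genotype on ND, as did 8 of 8 macrophage markers. Summed markers of skeletal muscle fibres were 195700, 85470 and 123800 CPM in WT ND and 80560, 93120 and 73310 CPM in WT HFD. In ob/ob mice they were 21840, 49800 and 21300 CPM on ND and 100100, 3965 and 15750 CPM on HFD. The part of these cell types in the changes of Fabp4, Fabp5 and Cd36 was not tested. Per 100 counts of Fabp4, Fabp5 had 1.43 to 2.97 counts in WT ND, 1.74 to 2.17 in WT HFD, 2.06 to 2.22 in ob/ob ND and 1.959 to 2.38 in ob/ob HFD.

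The muscle carrier Fabp3 was at 376, 2964 and 1243 CPM in WT ND, 1206, 857 and 2583 CPM in WT HFD, 514, 522 and 486 CPM in ob/ob ND and 945, 116 and 1040 CPM in ob/ob HFD. Groups overlapped except WT HFD and ob/ob ND. The genotype difference on ND was -1.59 ± 0.820 (adjusted p = 0.13). Without WT ND library 1 and ob/ob HFD library 2, the libraries with the lowest and the highest Adipoq, left out after the data were seen, it was -2.05 (adjusted p = 0.0114). In the same fit Fabp4, Fabp5 and Cd36 stayed higher in ob/ob mice (2.78, 2.83 and 1.46, adjusted p of 0.00936, 0.00904 and 0.0318). The ob/ob HFD library with 116 CPM of Fabp3 had the lowest muscle fibre sum, 3965 CPM. The WT ND library with 376 CPM had the highest, 195700 CPM. The part of muscle fibres in the Fabp3 levels was not tested.

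In heart the main carrier Fabp3 passed in no comparison. Of 6 tested members 1 differed between the genotypes on ND, against 12.7% of all genes. On HFD 0 of 6 differed, against 17.2%, HFD changed 0 of 6 in WT mice, against 0.256%, and 0 of 6 in ob/ob mice, against 0.0219%, and the diet effects differed in 0 of 6, against 0.0%. By edgeR 1, 1, 1 and 0 of these had an unadjusted p under 0.05, and DESeq2 called 0 in each. Fabp5 was at 65.99, 58.97 and 67.3 CPM in WT ND, 69.1, 68.1 and 55.6 CPM in WT HFD, 40.7, 53.8 and 50.1 CPM in ob/ob ND and 59.3, 56.8 and 46.9 CPM in ob/ob HFD. It was 1.33-fold lower in ob/ob mice on ND (-0.41 ± 0.118, adjusted p = 0.0309), a call lost without WT ND library 1 or 3 or ob/ob ND library 1 or 3 (-0.49 to -0.30, adjusted p up to 0.132). On ND 2 of 8 macrophage markers (sum 477 to 640 CPM in WT and 327 to 463 CPM in ob/ob) and 2 of 7 endothelial markers (678 to 732 CPM and 578 to 698 CPM) were lower too, and their part was not tested. Fabp3, the main carrier of this tissue, ran from 4249 to 5495 CPM over the 12 hearts, Cd36 from 2217 to 2752 CPM, Fabp4 from 915 to 1427 CPM and Slc27a1 from 97.7 to 138 CPM. Their genotype differences on ND were 0.08 ± 0.0894 for Fabp3, 0.11 ± 0.0919 for Cd36, 0.04 ± 0.126 for Fabp4 and 0.03 ± 0.0906 for Slc27a1, none past the threshold.

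In both brain regions Fabp7 was the member that moved. Of 6 tested members in hypothalamus, 1 differed between the genotypes on ND, against 5.3% of all genes, and 0 of 6 on HFD, against 2.13%. In hippocampus 0 of 6 differed on ND, against 3.48%, and 1 of 6 on HFD, against 1.56%. HFD changed 0 of 6 in either genotype and the diet effects differed in 0 of 6 in either region, each against 0.0% of all genes. At an unadjusted p under 0.05 there were 1 of 6 on HFD for genotype and 1, 0 and 0 for the 3 others in hypothalamus, and 1 of 6 on ND for genotype and 1, 0 and 0 for the others in hippocampus. DESeq2 called 1 of 6 for genotype on HFD in hypothalamus and 1 of 6 on ND in hippocampus, and 0 in the other 6 cases.

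Fabp7 in hypothalamus was at 37.5, 56.3 and 61.9 CPM in WT ND, 50.8, 30.8 and 37.2 CPM in WT HFD, 20.3, 17.7 and 22.5 CPM in ob/ob ND and 17.2, 20.1 and 26.7 CPM in ob/ob HFD. All 6 ob/ob libraries lay below all 6 WT libraries. Fabp7 was 2.57-fold lower in ob/ob mice on ND (-1.36 ± 0.217, adjusted p = 0.00533), and with any 1 library left out the difference stayed between -1.55 and -1.21 (adjusted p up to 0.0328). On HFD the difference was -0.89 ± 0.217, with an adjusted p of 0.052 by edgeR and 0.00365 by DESeq2. In hippocampus the gene stood at 23.4, 25.7 and 35.4 CPM in WT ND, 30.4, 21.5 and 23.8 CPM in WT HFD, 15.05, 14.01 and 19.6 CPM in ob/ob ND and 12.4, 10.4 and 13.9 CPM in ob/ob HFD. There too the ob/ob libraries lay below all WT libraries. The difference was -1.04 ± 0.198 on HFD (adjusted p = 0.0336) and -0.79 ± 0.195 on ND (adjusted p = 0.0501, and 0.00559 by DESeq2). The HFD call was lost without any 1 of 7 libraries, WT ND 2 or any WT HFD or ob/ob HFD library (-1.14 to -0.88, adjusted p up to 0.123), and with a replicate block (-1.05, adjusted p = 0.0598).

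Astrocyte markers were measured beside it. In hypothalamus their sum ran from 2594 to 3417 CPM in WT ND and 2907 to 3109 CPM in ob/ob ND, and 0 of 6 passed for genotype on either diet. In hippocampus it ran from 4179 to 4896 CPM in WT ND and 3212 to 4373 CPM in ob/ob ND, with 1 of 6 lower on ND and 0 of 6 passing on HFD. Oligodendrocyte markers were lower in 4 of 5 in hypothalamus on ND (sum 8212 to 9260 CPM in WT and 6099 to 6726 CPM in ob/ob), and their part in the Fabp7 difference was not tested. The other brain carriers passed in no comparison. Fabp5 ran from 121 to 159 CPM in hypothalamus and 103 to 138 CPM in hippocampus, and Fabp3 from 48.7 to 70.4 CPM and 50.1 to 68.4 CPM. Their genotype differences on ND in hypothalamus were -0.02 ± 0.0999 and 0.00 ± 0.129. The share of Fabp7 in the summed Fabp RPKM of hypothalamus was 27.3 ± 2.59% in WT ND and 12.9 ± 0.863% in ob/ob ND.

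**Figure D5:**
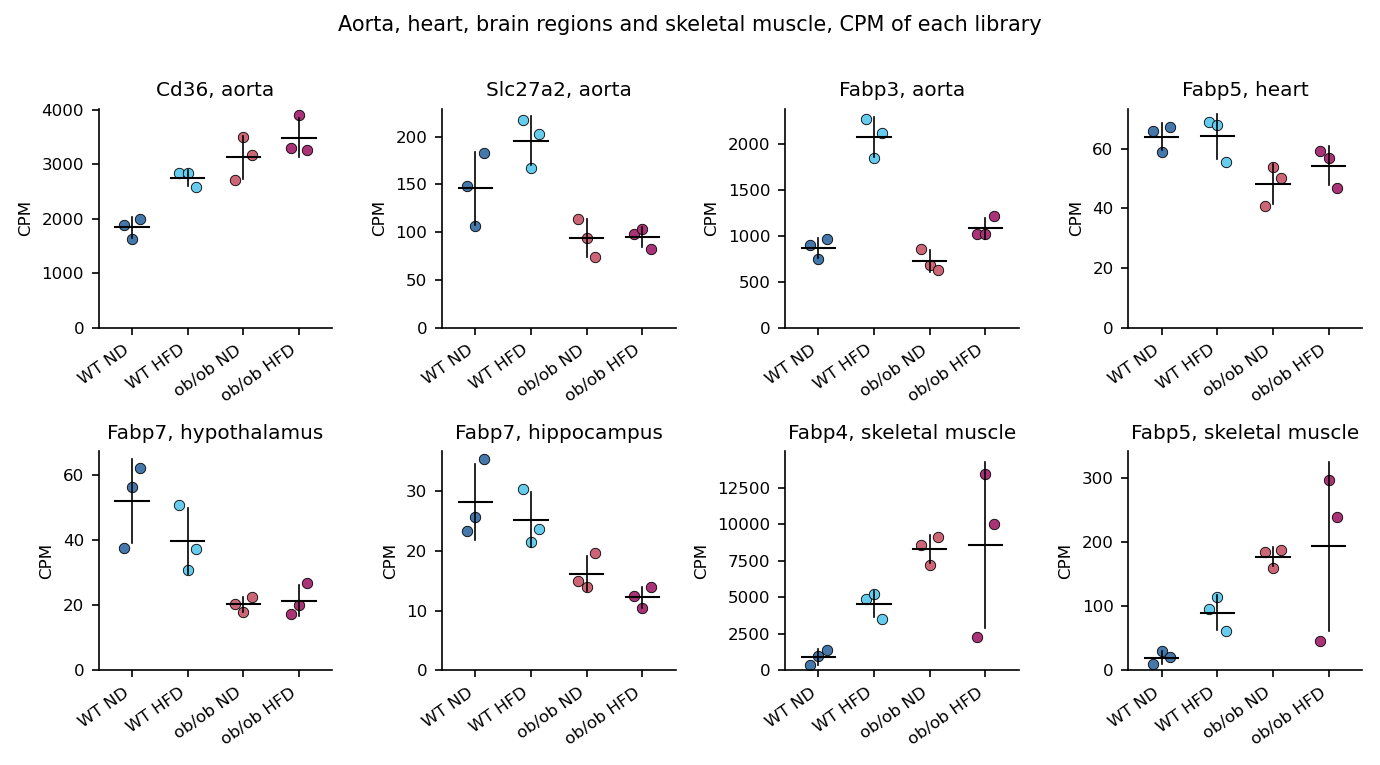
CPM (vertical axis, from 0) of members that passed a test in aorta, heart, the brain regions and skeletal muscle, in each of the 3 libraries of the 4 groups (points), with the group mean (horizontal line) and SD (vertical line). The 6 ob/ob libraries lie below the 6 WT libraries for Fabp7 in both brain regions, and the ob/ob HFD libraries scatter for Fabp4 and Fabp5 in skeletal muscle.

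Genes that act before and after uptake were counted in lists. Delivery genes cover lipoprotein lipase (Lpl) with its partners, the lipases that release fatty acids, the caveolins and the endothelial factors. In epididymal fat of WT mice HFD lowered 14 and raised 1 of 16 tested delivery genes (median -1.56), against 58.9% called and a median of -0.04 over all genes. The 1 that rose was Nrp1, a receptor for the growth factor VEGFB, at 0.72 ± 0.147 (adjusted p = 0.0015), and among those that fell were Apoc3 (-4.74 ± 1.30, adjusted p = 0.00864), a gene of hepatocytes, and Tcf15 (-2.73 ± 0.701, adjusted p = 0.00608), an endothelial regulator. On ND 6 of 16 were lower and 0 higher in ob/ob fat, against 48.2% of all genes called in either direction, with Vegfb at -1.57 ± 0.232 (adjusted p = 0.000269). In liver on ND 4 of 15 were higher and 3 lower in ob/ob mice, against 36.4% of all genes called. Lpl, which frees fatty acids from lipoproteins, was 2.12 ± 0.415 higher (adjusted p = 0.00151), and Nrp1 was lower by -1.70 ± 0.111 (adjusted p = 4.68e-07).

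Of 8 tested genes for activation of fatty acids to their CoA esters, HFD raised 4 and lowered 4 in WT fat, against 58.9% of all genes called. Acsl4, which prefers arachidonic acid, rose (1.28 ± 0.114, adjusted p = 6.64e-06), and the medium-chain synthetases Acsm5 (-4.48 ± 0.437, adjusted p = 1.16e-05) and Acsm3 (-3.99 ± 0.378, adjusted p = 9.56e-06) fell. In liver on ND 1 of 8 was higher (Acsl4, 0.76 ± 0.168, adjusted p = 0.00323) and 3 lower in ob/ob mice, among them Acsl1, the main long-chain synthetase of liver (-0.88 ± 0.126, adjusted p = 0.000154). Of all genes 36.4% were called there. In ob/ob liver HFD lowered 2 of 8, Acsl5 (-0.75 ± 0.135, adjusted p = 0.0214) and the acyl-CoA binding protein gene Dbi (-0.60 ± 0.127, adjusted p = 0.0475), against 0.913% of all genes called.

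Among 11 PPAR receptors and partners, 7 fell and 0 rose with HFD in WT fat, against 58.9% of all genes called, and 6 were lower and 0 higher in ob/ob fat on ND, against 48.2%. Ppara, the receptor of fatty acid oxidation, was at -1.19 ± 0.336 (adjusted p = 0.0129) and Rxrg at -1.08 ± 0.354 (adjusted p = 0.0257) in the latter. With HFD in WT fat the largest fall was that of Hnf4a, a receptor gene of hepatocytes (-4.94 ± 1.53, adjusted p = 0.0162). All 6 hepatocyte markers fell there too, and their part in the list counts of WT fat was not tested. In liver on ND 3 were higher and 5 lower in ob/ob mice, against 36.4%. Pparg, the adipocyte receptor, was 1.25 ± 0.181 higher (adjusted p = 0.000171) and Ppara was lower (-0.42 ± 0.129, adjusted p = 0.0222). Of 25 tested PPAR targets outside the members, 7 were higher and 5 lower in ob/ob liver on ND, against the same 36.4%. Cidec, a lipid droplet protein gene, was 3.50 ± 0.250 higher (adjusted p = 9.24e-07) and Acot1, an acyl-CoA thioesterase gene, was lower (-1.53 ± 0.179, adjusted p = 3.19e-05). In WT fat HFD raised 4 and lowered 13 of 26, against 58.9%, with the droplet coat gene Plin2 up (2.87 ± 0.178, adjusted p = 5.62e-07) and Pck1, a gene of glycerol synthesis, down (-4.45 ± 0.522, adjusted p = 3.94e-05). The largest fall was that of Cyp4a14 (-5.24 ± 1.46, adjusted p = 0.00941), beside the same hepatocyte markers. Cidec and Pck1 are also on the adipocyte marker list.

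For genotype on ND, each of the lists above held fewer calls in aorta, heart and the brain regions than in fat or liver. On HFD this did not hold for PPAR receptors and partners, with 3 higher and 1 lower of 10 in ob/ob heart, against 17.2% of all genes. In ob/ob fat on HFD 3 of these were higher and 0 lower of 11, against 17.6%. Nor did it hold for activation genes, with 3 higher and 1 lower of 7 in heart and of 8 in fat. Delivery genes on HFD had 2 higher and 2 lower of 16 in aorta, against 16.2% of all genes. In liver 1 of 15 was higher and 3 lower, against 18.5%. On ND 10 of 16 delivery genes and 8 of 23 PPAR targets were higher in ob/ob muscle, and 1 and 3 lower, against 45% of all genes called in either direction and beside the adipocyte markers already given. Of the other members of the families, Slc27a6 rose with HFD in WT fat, from 0.479, 0.733 and 0.806 CPM to 10.3, 7.59 and 3.596 CPM (3.39 ± 0.441, adjusted p = 7.79e-05). In ob/ob ND fat it stood at 0.901 to 1.69 CPM, and the diet effects differed by -2.39 ± 0.604 (adjusted p = 0.00939). Slc27a4, another gene of that family, was 0.54 ± 0.127 higher in ob/ob liver on ND (adjusted p = 0.0053).

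Across the 28 group means, each member was set beside 15095 other genes, by Pearson's r of log2(RPKM + 1). The points share tissues and libraries, so r is a description of tissue pattern. Slc27a5 was most like Slc10a1, a bile acid transporter gene, Ugt2b34 and Cyp2d10 (r of 0.9997 for the first), and Fabp2 was most like Serpina7, Agxt2 and Akr1c20 (0.9997). Fabp1 was closest to Gc, Apoa2 and Serpina3k (0.998), and Slc27a2 to Aspg, Rassf6 and Mpzl2 (0.985). Fabp4 was closest to Fam129a, the glycerol channel gene Aqp7 and Fkbp7 (0.984), Cd36 to Sept2, Igfbp7 and Itgb1 (0.989), Slc27a1 to Cav2, Fstl1 and Medag (0.963) and Fabp3 to Btbd1, Timm17a and Me3 (0.990). Fabp7 (Wdfy3, Cadm1 and Ap2m1, 0.952) and Fabp5 (Rgs19, Rin2 and Gltp, 0.935) had looser matches.

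Free fatty acids, the substrate of these proteins, had been measured in blood of the same mice. They were 490, 628 and 450 µEq/L in WT ND, 405, 496 and 537 µEq/L in WT HFD, 742 and 472 µEq/L in 2 ob/ob ND mice with a value, and 558, 563 and 513 µEq/L in ob/ob HFD. The groups overlapped.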

How the data were processed

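Gene counts were read from the deposited table. The submitters' processing notes name Trimmomatic 0.36, HISAT2 2.0.5, the GRCm38 build and featureCounts 1.5.0-p2, while the file header gives featureCounts 1.5.1. Per the file headers no strand option was set and multi-mapped reads were not counted, so these raw counts per gene miss reads shared with gene copies. The deposited lengths are the union of annotated exons. Blood concentrations are other deposited values, used as given.

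A separate edgeR 4.0.16 model (R 4.3.3) was made for every tissue (filterByExpr with a smallest count of 10 and total of 15, TMM, 1 mean for each of 4 groups, quasi-likelihood F test, Benjamini-Hochberg adjustment, threshold 0.05). The 12 libraries of a tissue share 1 estimate of spread. Other settings tried were DESeq2 1.42.0, edgeR with the size factors of DESeq2, no low-count filter, mouse number as a block, and each library left out. Fits were tested on simulated data with genotype differences. On ND, 2-fold differences were recovered in 9.1% of cases in skeletal muscle and in 61% to 81% in the other tissues. For 4-fold differences these shares were 70.7% and 84.8% to 99%. Unchanged genes were called in at most 0.101%. The simulation changed a smaller share of genes than was called on ND in the real data of each tissue (3.48% to 48.2%). Its shares therefore do not give the recovery or false calls of the fits to the real data. CPM and RPKM were computed here. Same-numbered libraries had median correlations near 0, so numbers were not taken as pairs. Body composition and weights were not used here.

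All 10 members are named. From each list, up to 2 genes with the highest and 2 with the lowest called fold change in a comparison could be named, and for each member the 3 genes most alike. The members and lists were chosen with earlier results of these data known.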

Additional observations from a re-analysis of the deposited data

Results flagged for a closer look

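For 7 pairs of member and tissue, the genotype effect on HFD differed from that on ND by edgeR's test of that difference, which equals the difference of the diet effects. The values are log2 differences, HFD minus ND. In epididymal fat they were -0.8896 for Cd36, 1.2974 for Slc27a1, 1.9957 for Fabp4, -1.6874 for Fabp5 and -4.9155 for Fabp7. In liver they were -1.0858 for Cd36 and -2.2691 for Fabp4. The values of a tissue use the same WT ND libraries of that tissue. The adipocyte and macrophage markers of epididymal fat passed the same test, with 7 of 8 higher and 8 of 8 lower. Their part was not tested.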

How the results depend on the processing

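Of 51 calls of members, 35 held with each library left out and under every other setting but the pairs of libraries left out, and 16 were lost. Pairs of libraries were left out only in epididymal fat and skeletal muscle, so calls in the other tissues did not face that check. The fit in fat kept only 1 WT ND library, so calls are not counted from it. The number of called pairs with 1 library left out ranged from 15 to 20 for genotype on ND (20 with all libraries), from 4 to 8 for genotype on HFD (8), from 12 to 19 for diet in WT mice (16), from 0 to 1 for diet in ob/ob mice (0) and from 6 to 11 for the difference of diet effects (7). The count for genotype on HFD was 4 without WT HFD library 1 or ob/ob HFD library 3 and 5 without ob/ob HFD library 2. That for the difference was 11 without WT ND library 3. With no low-count filter the counts were 13 for genotype on HFD, 5 for diet in ob/ob mice and 12 for the difference of diet effects, and the cause was not tested. With the replicate block, which the same-number correlations do not support as a pairing, the counts were 22, 7, 15, 0 and 9 in that order. Without WT ND libraries 1 and 2 of epididymal fat, chosen after seeing the data, the value reversed to 1.957 for Slc27a2 by genotype on ND, and with diet in WT mice to 0.513 for Slc27a2, 1.449 for Fabp1 and 5.505 for Slc27a5. Over all genes, 43 of 140 counts moved by over 1.5 times. In hippocampus 569 genes differed by genotype on ND, against 1110 by DESeq2 and 81 with the block. With 3 mice a group, folds of members with few counts in WT ND libraries, such as Fabp3 and Fabp7 in fat, are imprecise.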
